A study of Mus musculus with 6 samples.

Results

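The genes described here carry glucose into the cell and take it through glycolysis to lactate: the transporter gene Slc2a1 and the enzyme genes Hk2, Gpi1, Pfkl, Aldoa, Aldoc, Gapdh, Pgk1, Pkm and Ldha. They are 10 of 35423 genes restored from the deposited table, found by an exact match of the symbol, and all 10 passed the filter of a mean of at least 1 FPKM (fragments scaled to gene length and library size). The group was chosen by its place in the pathway and also selected on results of these same libraries, because Aldoc stood among the largest rises after ZA while Aldoa beside it did not. The ZA to Ctrl differences of the members are therefore given as a description, with no p-value printed for them. Where calls of members are counted, the counts are a description too. The libraries are from bone marrow-derived macrophages (BMDMs), cells grown out of the femoral marrow of C57BL/6 mice, with 3 libraries of untreated cells (Ctrl) and 3 of cells taken 12 h after stimulation with zoledronic acid (ZA), a nitrogen-containing bisphosphonate that blocks farnesyl diphosphate synthase in the mevalonate pathway. The ZA concentration and the age of the donor mice were not given for these libraries in the sources used here. The labels number the samples as replicates but do not say that they came from separate mice or cultures, so p-values measure the spread between these samples, which may be technical.

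Glycolysis splits glucose into pyruvate in the cytosol. A transporter of the GLUT family brings glucose in, hexokinase traps it as a phosphate ester, phosphofructokinase commits it to the pathway, and aldolase cleaves the fructose bisphosphate into a pair of triose phosphates, after which GAPDH, phosphoglycerate kinase and pyruvate kinase recover energy and lactate dehydrogenase regenerates NAD+. Macrophages are known to draw on this pathway when they are activated, and several of its genes are textbook targets of the hypoxia-inducible factor HIF-1. Aldolase has separate genes in mammals, of which Aldoa is the muscle-type form found in most tissues and Aldoc the form known from brain.

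The libraries were of like depth, with totals between 41230600 and 42155808 fragments, and the members together took 0.268% to 0.276% of the fragments in each. The macrophage markers F4/80 (Adgre1), Csf1r, Cd68, Itgam, Mertk, Fcgr1, Cd14 and Lyz2 were all detected, and the defining neutrophil marker Ly6g was at 0 in all 6 libraries. The 12 neutrophil and myeloid progenitor markers summed to 37.2 to 53.5 FPKM in Ctrl and 33.9 to 38.9 FPKM in ZA, and all 7 of them that passed the filter had a lower fitted mean in ZA. For 4 of these 7, Mpo, Elane, Prtn3 and Ngp, every ZA library lay below every Ctrl library, as for 6.76% of all genes tested. Of the 8 macrophage markers 7 had a higher fitted mean in ZA, and the 8 summed to 23609 to 27519 FPKM in Ctrl and 24498 to 28005 FPKM in ZA. Most of that sum was Lyz2, at 20472 to 24406 FPKM in Ctrl and 21272 to 24669 FPKM in ZA. For 4 of the 8, Adgre1, Csf1r, Cd68 and Cd14, every ZA library lay above every Ctrl library, as for 11.4% of all genes tested. Fibroblast markers summed to 18.2 to 32.7 FPKM in Ctrl and 16.3 to 23.5 FPKM in ZA, and the erythroid, lymphocyte and dendritic cell lists to at most 2.67, 1.08 and 0.459 FPKM in any library. None of the marker genes tested had an adjusted p under 0.05 from limma with Benjamini-Hochberg adjustment (the smallest was 0.0701, of the macrophage gene Csf1r). Over all genes tested 0.367% did. In bulk RNA, fewer cells of a type and less RNA per cell cannot be told apart, and the part of these markers in the differences below was not tested.

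In Ctrl the members spanned a wide range of levels. Pkm was the highest at a mean of 173 FPKM, followed by Pgk1 at 149 FPKM and Gpi1 at 140.5 FPKM, and these 3 ranges did not touch each other. Ldha came next at 84.8 FPKM and Gapdh at 44.8 FPKM. Pfkl lay at 15.95 FPKM, Slc2a1 at 10.6 FPKM, Aldoc at 10.1 FPKM, Hk2 at 7.87 FPKM and Aldoa last at 3.26 FPKM. Of the 9 pairs of neighbours in this order, only Slc2a1 and Aldoc had ranges that overlapped (10.4 to 10.8 and 9.59 to 10.6 FPKM).

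**Figure D1:**
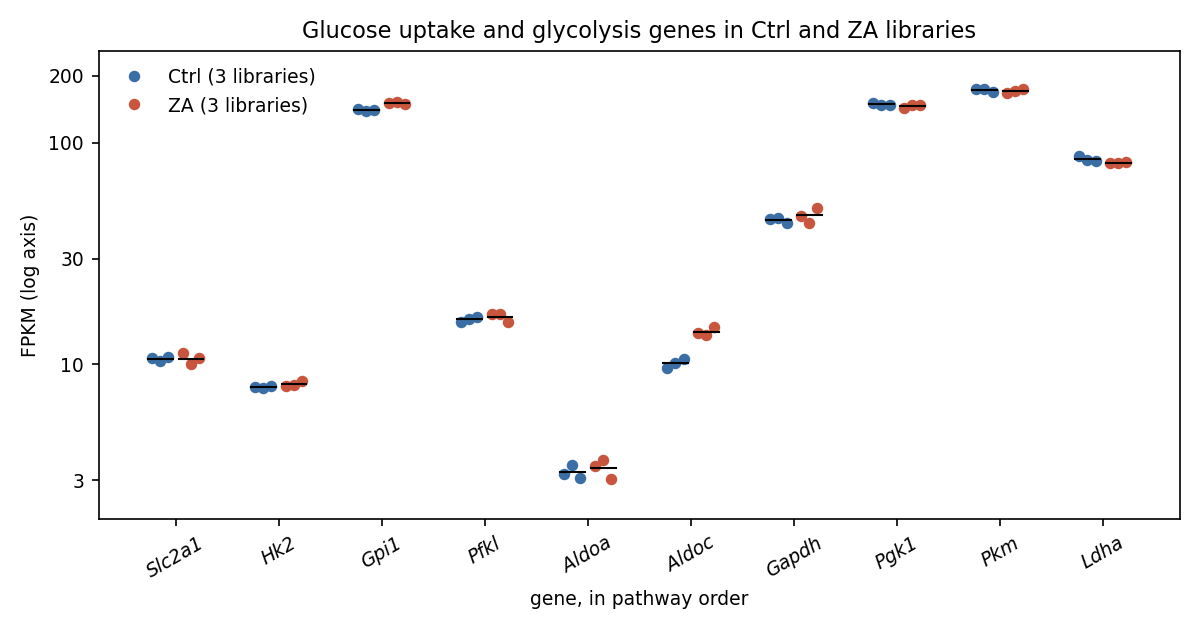
FPKM of the 10 genes in each library on a log axis, in pathway order; points are single libraries and short lines are group means of 3 libraries. The ZA points of Aldoc lie between 13.5 and 14.8 FPKM, above all Ctrl points, while for most other genes the points of both groups lie at the same height.

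Some of these levels depend on how reads from copies were counted, and the aligner and counting program are not given in the sources used here. Of the 150-base windows along the Gapdh transcript, 74.0% also occur in transcripts of 49 other genes of the GENCODE M21 annotation, and of those along Pgk1, 66.1% occur in 2 other genes, Gm5537 and Pgk1-rs7. For Pkm the share was 2.89% and for the other 7 members it was 0%. The levels of Gapdh and Pgk1 are thus uncertain, and the low level of Gapdh relative to Pgk1 and Pkm cannot be read as the order of their RNAs. FPKM also depends on the gene length that fragments were divided by. The length recovered from the values was 5342 bases for Ldha and 7687 bases for Pkm. Their longest coding transcripts in GENCODE M21 have 1815 and 2432 bases. For Pgk1 both lengths were 1825 bases, and for Gpi1 they were 2887 and 2884 bases. The places of Ldha and Pkm in the order of levels are therefore uncertain as well. For Aldoa the same annotation lists 2 gene models under the symbol, on chromosome 7 at 126795234 to 126800751 and at 126800790 to 126809108 (GRCm38, minus strand). Which of them the row counts is not given, and whether this bears on the low level of Aldoa was not tested.

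Promoter windows of the members show which short letters stand near their starts. RefSeq windows of 300 bases (250 before a start and 50 from it on, GRCm38.p6) were found for all 10 members, 15 windows in all. They were searched on both strands for ACGTG, the core of the element that HIF-1 is known to bind, and for TCACNCCAC, a form of the sterol regulatory element known from genes of cholesterol synthesis. The sites below are shown for Aldoc, the member with the large difference, whose first window holds a match to both, and for Pgk1 and Ldha as members without such a difference. Capitals mark the match, read 5′ to 3′ on the strand of the gene, so that CACGT is ACGTG on the other strand.
Aldoc sterol-type site, chr11:78322983-78323011, plus strand: ggcagaggaaTCACTCCACctcactactc
Aldoc hypoxia-type core, chr11:78323088-78323116, plus strand: cccccagggagtCACGTagctctgcggca
Pgk1 hypoxia-type core, chrX:106186938-106186966, plus strand: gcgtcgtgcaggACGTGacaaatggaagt
Ldha hypoxia-type core, chr7:46845745-46845773, plus strand: ggcccagcctacACGTGggttcccgcacg

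The sterol-type letters began 80 bases before the RefSeq start in Aldoc (position -80). The GENCODE M21 model of Aldoc begins earlier, at 78322968, so in that annotation the same letters lie inside the gene. In all, 2 of the 15 member windows held them, against 1.24% of all 32851 windows. The other of the 2 also held the hypoxia-type core and belongs to a member whose groups overlapped, so holding both was not particular to Aldoc. The hypoxia-type core was found in 9 of the 15 member windows, in 8 of the 10 genes, against 19.6% of all windows. Gpi1 and Pfkl had neither. In the first Ldha window the core occurred around positions -145 and -48 as CACGTG, which matches on both strands, and once more at -34. The second Aldoc window held neither. The windows of Cyp51, Idi1 and Slc13a3, genes with a profile like that of Aldoc that are described further on, held no sterol-type match. The Slc13a3 window held the hypoxia-type core at position -154. For Sqle, also described further on, no window was found, so it was not searched. These are matches of letters in a window, not bound sites.

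For Slc2a1 and Hk2, the members of uptake and the first phosphorylation, the groups overlapped. Slc2a1, which encodes the transporter GLUT1, measured 10.6, 10.4 and 10.8 FPKM in Ctrl and 11.2, 9.98 and 10.6 FPKM in ZA, so the ZA libraries lay on both sides of the Ctrl range. Its fitted difference was 0.00 on the log2(FPKM + 1) scale with a 95% interval from -0.10 to 0.10. Hk2, the inducible hexokinase, measured 7.85, 7.78 and 7.97 FPKM in Ctrl and 7.96, 8.02 and 8.40 FPKM in ZA. The lowest ZA library fell inside the Ctrl range, and the mean was 3.27% higher, with a log2 difference of 0.04 ± 0.03 (SE, n = 3 per group).

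Neither of these members was the largest form of its family by FPKM. The summed FPKM of the 11 glucose transporter genes did not overlap between the groups, with 46.6, 48.6 and 48.1 FPKM in Ctrl and 51.0, 51.6 and 55.8 FPKM in ZA. Slc2a6 alone, the largest part of that sum, measured 18.5, 20.3 and 19.9 FPKM in Ctrl and 22.3, 24.4 and 27.6 FPKM in ZA. The sum is thus no sign of a difference across the family. Of all genes tested, 11.4% lay higher in ZA without overlap. Slc2a1 made up 22.2% ± 0.762 of the summed FPKM of 11 glucose transporter genes in Ctrl (SD, n = 3) and 20.1% ± 1.604 in ZA. The larger share belonged to Slc2a6, which encodes GLUT6, with 41.0% ± 1.099 in Ctrl and 46.8% ± 2.94 in ZA. Hk2 held 5.63% ± 0.145 of the hexokinase FPKM in Ctrl and 5.77% ± 0.189 in ZA, beside 81.5% and 81.0% for Hk3, the form known from blood cells.

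Gpi1, glucose-6-phosphate isomerase, was the member with the second largest difference. It measured 142, 139 and 141 FPKM in Ctrl and 151, 152 and 149.8 FPKM in ZA. Every ZA library lay above every Ctrl library, by 7.33% in the means. The log2 difference was 0.10 ± 0.02 (SE, n = 3 per group), with a 95% interval from 0.05 to 0.15. In GENCODE M21, 11.5% of the exon bases of Gpi1 overlap Gm26762, and strand use in the counting is not given in the sources used here, so reads of both genes may not be separable. The same limit holds for Pkm, of whose exon bases 15.3% overlap Gm49759.

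Pfkl, the liver-type phosphofructokinase, measured 15.6, 16.03 and 16.3 FPKM in Ctrl and 16.8, 16.8 and 15.5 FPKM in ZA. A pair of ZA libraries lay above the Ctrl range and the third below it, with a log2 difference of 0.03 ± 0.04 (SE, n = 3 per group). Pfkl took 45.8% ± 1.11 of the phosphofructokinase FPKM in Ctrl (SD, n = 3) and 47.7% ± 1.74 in ZA, with Pfkp, the platelet-type form, at 40.1% ± 1.01 and 38.4% ± 1.45. The summed level of the 3 phosphofructokinase genes was 34.9 ± 0.161 FPKM in Ctrl and 34.3 ± 0.484 FPKM in ZA.

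The aldolases were where the members parted. Aldoc, annotated on chromosome 11 at 78322968 to 78327781 (GRCm38, plus strand), measured 9.59, 10.2 and 10.6 FPKM in Ctrl and 13.8, 13.5 and 14.8 FPKM in ZA, which are between 1148 and 1789 fragments per library. The groups did not overlap, and the gap between the highest Ctrl and the lowest ZA library was wider than the spread within either group. The mean was 10.1 ± 0.507 FPKM in Ctrl and 14.0 ± 0.654 FPKM in ZA (SD, n = 3), which is higher by 38.7%. On the log2(FPKM + 1) scale the difference was 0.44 ± 0.05 (SE), with a 95% interval from 0.33 to 0.54, and it ranked 11 from the top among 9800 genes tested. Aldoa measured 3.19, 3.51 and 3.08 FPKM in Ctrl and 3.48, 3.70 and 3.05 FPKM in ZA. Its ZA libraries covered the Ctrl range and went past it on both sides. The log2 difference was 0.05 ± 0.07 (SE, n = 3 per group), resting on 237 to 284 fragments per library.

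Aldoc was the larger aldolase row in every library and its share differed between the groups. It made up 75.1%, 74.3% and 77.5% of the summed FPKM of Aldoa and Aldoc in Ctrl and 79.8%, 78.5% and 82.9% in ZA. The sum of both was 12.8, 13.7 and 13.7 FPKM in Ctrl and 17.3, 17.2 and 17.8 FPKM in ZA. The shares did not overlap between the groups. They are built from the same Aldoc and Aldoa values on which the group was selected, so they restate that selection and are no further result. The share uses the Aldoa row, whose gene model is open as described above.

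**Figure D2:**
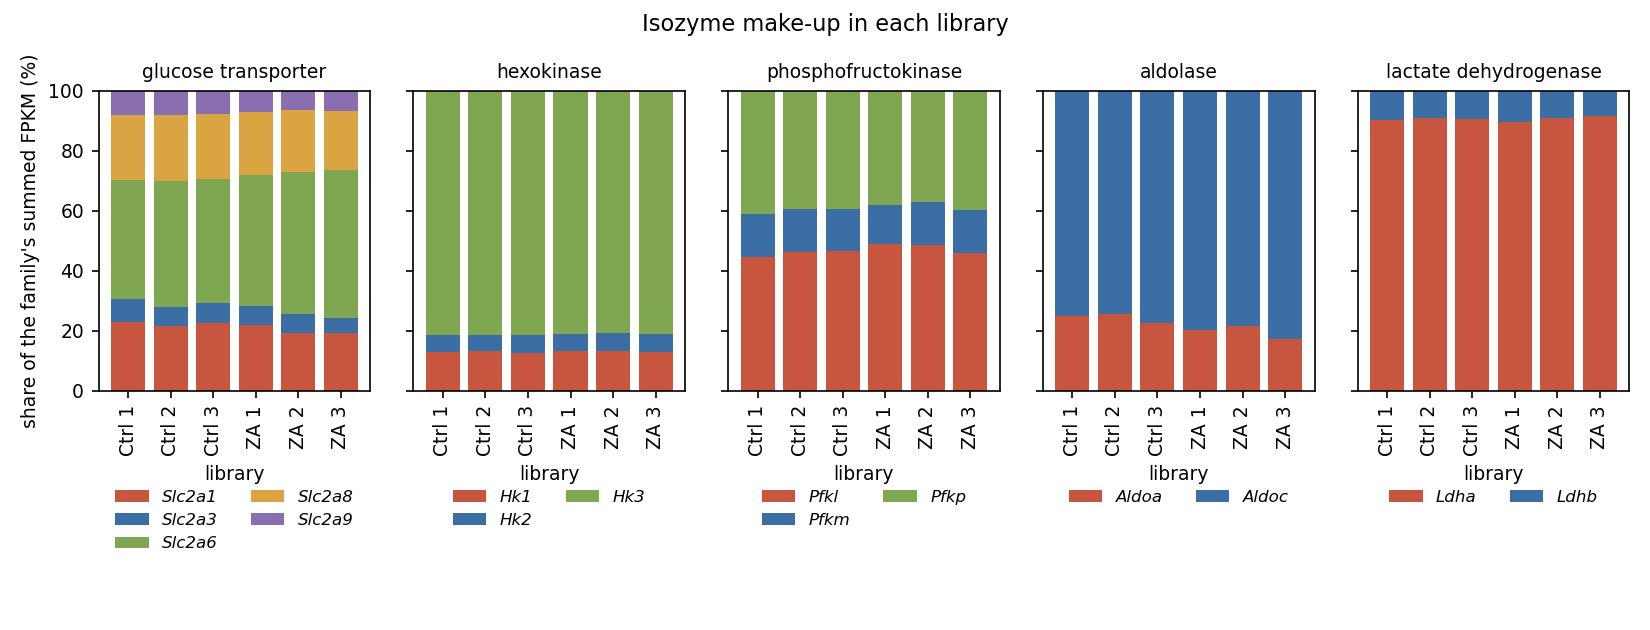
Share of each isozyme in the summed FPKM of its family, in percent, for each of the 6 libraries; genes with under 1% of the family in Ctrl are left out, and bars start at 0. The Aldoc part of the aldolase bars is taller in the 3 ZA libraries (78.5% to 82.9%) than in the 3 Ctrl libraries (74.3% to 77.5%), while the lactate dehydrogenase bars stay near 90.5% Ldha.

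The members of the second stage of the pathway, from the triose phosphates to pyruvate, showed overlapping groups. Gapdh, the dehydrogenase that makes the first high-energy phosphate of this stage, measured 45.2, 45.7 and 43.6 FPKM in Ctrl and 46.7, 43.5 and 50.6 FPKM in ZA. The ZA libraries were spread more widely, with a coefficient of variation of 7.62% against 2.46% in Ctrl, and ZA replicate 3 was the highest. The log2 difference was 0.06 ± 0.05 (SE, n = 3 per group). Pgk1, phosphoglycerate kinase, measured 151, 148 and 149 FPKM in Ctrl and 143, 148 and 148 FPKM in ZA. Its lowest library was ZA replicate 1, and its log2 difference was -0.03 ± 0.02 (SE, n = 3 per group). Pkm, the pyruvate kinase of most tissues, measured 175, 175 and 169 FPKM in Ctrl and 168, 172 and 175 FPKM in ZA. Both groups covered nearly the same range, with a log2 difference of -0.01 ± 0.03 (SE, n = 3 per group). The table holds 1 value per gene, so the M1 and M2 splice forms of Pkm were not analysed here.

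Ldha, which turns pyruvate into lactate, was the member with the lowest difference. It measured 87.4, 84.0 and 82.9 FPKM in Ctrl and 81.1, 80.6 and 81.7 FPKM in ZA. Every ZA library lay below every Ctrl library, though the gap between the nearest libraries was smaller than the spread within Ctrl. The percent change of the mean was -4.26, and the log2 difference was -0.06 ± 0.03 (SE, n = 3 per group) with a 95% interval from -0.12 to -0.00183. Ldha held 90.5% ± 0.382 of the lactate dehydrogenase FPKM in Ctrl (SD, n = 3) and 90.6% ± 1.002 in ZA. This share depends on unlike gene lengths, 5342 bases for Ldha and 652 bases for Ldhb. In fragments, Ldha had 17857 to 19463 per library and Ldhb 207 to 259, so the Ldhb part is much smaller by that measure.

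Across the members, 6 had a higher and 4 a lower mean in ZA. The groups did not overlap upward for Aldoc and Gpi1 and downward for Ldha. Over all 9800 genes tested, every ZA library lay above every Ctrl library for 11.4% and below for 6.76%. By limma with Benjamini-Hochberg adjustment, 1 of the 10 members, Aldoc, had an adjusted p under 0.05, against 0.367% of all genes, and 3 had an unadjusted p under 0.05, against 12.3%. Aldoc was no longer called without Ctrl replicate 1 (log2 difference 0.40), Ctrl replicate 2 (0.44), ZA replicate 2 (0.46) or ZA replicate 3 (0.40). Since the group was selected on this contrast, nothing is read from these counts. The median log2 difference of the members was 0.04, and 0.03 without Aldoc, beside 0.01 for all genes tested. Without Aldoc the differences ran from -0.06 to 0.10. The other 9 members summed to 638, 629 and 623 FPKM in Ctrl and to 628, 635 and 642 FPKM in ZA, and these ranges overlapped.

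**Figure D3:**
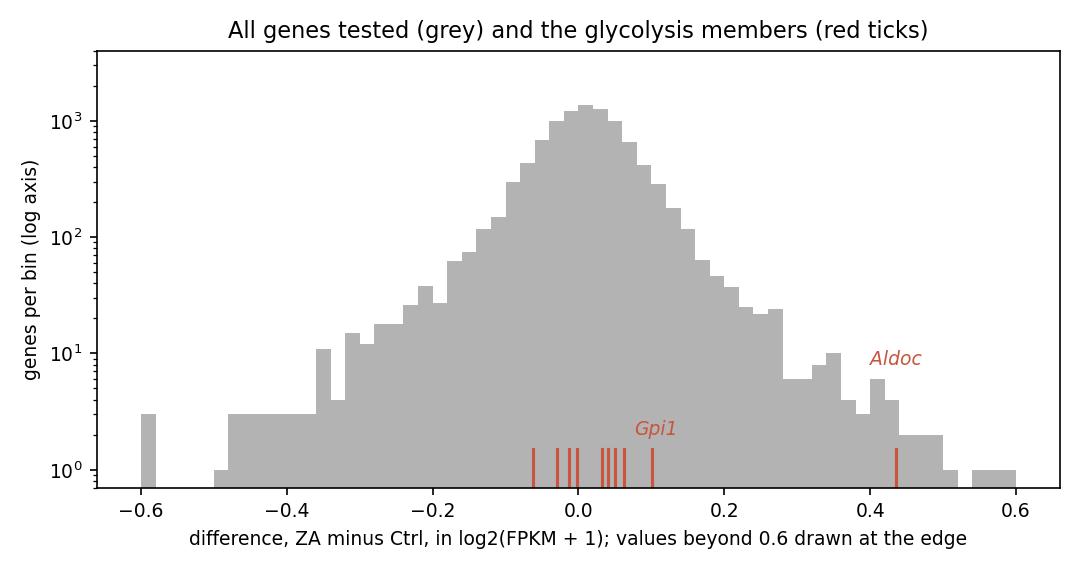
Histogram of the fitted difference between ZA and Ctrl in log2(FPKM + 1) for the 9800 genes tested (grey, log axis for the number of genes), with the 10 members as red ticks; differences beyond 0.6 are drawn at the edge. Aldoc stands at 0.44 in the right tail, and the other 9 members lie between -0.06 and 0.10 in the bulk of all genes.

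The other genes of the pathway were tested in the same fit, which shows how the members compare with their neighbours. Of 30 further glycolysis genes, 21 passed the filter, and 0 had an adjusted p under 0.05 from limma with Benjamini-Hochberg adjustment, while 4 had an unadjusted p under 0.05 (1 higher and 3 lower). Over all genes tested these shares were 0.367% and 12.3%. With so small a share over all genes, 0 calls among 21 genes do not set the list apart. Of these 21 genes, 11 had a higher and 10 a lower fitted mean, with a median log2 difference of 0.00. The largest statistic was that of Slc2a6, which measured 18.5, 20.3 and 19.9 FPKM in Ctrl and 22.3, 24.4 and 27.6 FPKM in ZA. Its groups did not overlap, and its log2 difference of 0.32 ± 0.07 (SE) had an adjusted p of 0.113 from limma. Slc16a1, the lactate transporter MCT1, had 3.19 ± 0.190 FPKM in Ctrl and 2.77 ± 0.0539 FPKM in ZA (SD, n = 3; limma adjusted p = 0.258). Eno2, the neuronal-type enolase, had 5.12 ± 0.0628 and 4.53 ± 0.409 FPKM (SD, n = 3; limma adjusted p = 0.341). The steps without a member here were at high and overlapping levels: triose phosphate isomerase (Tpi1) had 158 and 161 FPKM, phosphoglycerate mutase (Pgam1) 131 and 133 FPKM, and the main enolase (Eno1) 192 and 191 FPKM in Ctrl and ZA.

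**Figure D4:**
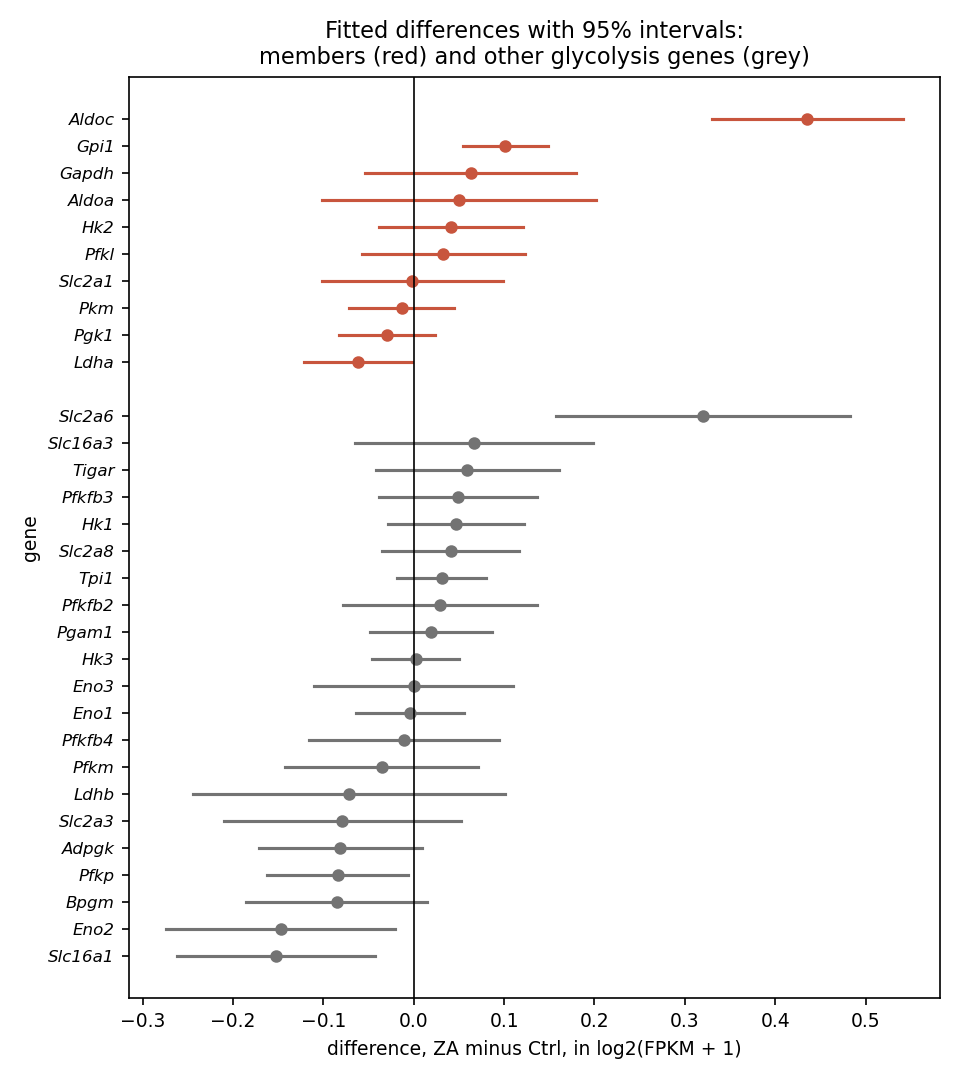
Fitted difference between ZA and Ctrl in log2(FPKM + 1) with its 95% interval (n = 3 libraries per group), for the 10 members in red and the 21 other glycolysis genes that passed the filter in grey. Among the members Aldoc lies apart at 0.44 and Gpi1 follows at 0.10, and among the other genes Slc2a6 lies highest at 0.32.

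Genes around the pathway gave 0 calls at an adjusted p under 0.05 as well, beside 0.367% of all genes tested. At an unadjusted p under 0.05 from limma the share over all genes tested was 12.3%. For the fate of pyruvate, 16 of 18 genes were tested, with 2 at an unadjusted p under 0.05. Got1, an aspartate aminotransferase, had 40.9 and 38.5 FPKM in Ctrl and ZA, Pdp2, a phosphatase of pyruvate dehydrogenase, 2.88 and 3.39 FPKM, and the pyruvate carrier subunit Mpc1 27.6 and 25.8 FPKM, with limma adjusted p of 0.301, 0.339 and 0.461. For the pentose phosphate, glycogen and other branches, 21 of 23 genes were tested, with 1 at an unadjusted p under 0.05. G6pdx, which opens the pentose phosphate pathway, had 121 and 127 FPKM, Psph of serine synthesis 1.22 and 1.45 FPKM, and Ugp2 of glycogen synthesis 29.9 and 28.6 FPKM, with limma adjusted p of 0.372, 0.452 and 0.470.

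Targets of HIF-1 outside glycolysis and regulators of the pathway were read in the same way. The shares over all genes tested were again 0.367% at an adjusted and 12.3% at an unadjusted p under 0.05 from limma. Of 20 HIF-1 targets 17 were tested, and 0 had an adjusted p under 0.05 while 2 had an unadjusted p under 0.05, with a median log2 difference of 0.00. The lipid droplet gene Plin2 had 233 and 218 FPKM in Ctrl and ZA, the stress-induced Ddit4 2.69 and 2.05 FPKM, and the mitophagy receptor gene Bnip3 12.03 and 13.1 FPKM, with limma adjusted p of 0.235, 0.355 and 0.477. Of 11 regulators 10 were tested, with 0 at an adjusted p under 0.05 and 4 at an unadjusted p under 0.05. Txnip, an inhibitor of glucose uptake, had 166 and 178 FPKM, Srebf2, a sterol-sensing transcription factor, 33.4 and 36.0 FPKM, and Myc 3.71 and 3.04 FPKM, with limma adjusted p of 0.205, 0.250 and 0.301. The symbols that begin like those of a member gave 9 more rows, of which only Pkmyt1, a kinase unrelated to Pkm, passed the filter. The germline aldolase rows Aldoart1 and Aldoart2 were at most 0.0936 FPKM.

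The genes whose profile over the 6 libraries was most like that of Aldoc were found by the root mean square difference of log2(FPKM + 1), each gene centred on its own mean. Among the 5 nearest, on a scale where Aldoc itself varied by 0.224, Cyp51, a sterol demethylase gene, lay at 0.048, Idi1, an isomerase of isopentenyl diphosphate, at 0.051, Sqle, squalene epoxidase, at 0.052, and Slc13a3, a dicarboxylate transporter gene, at 0.058. Cyp51 measured 13.8, 14.5 and 14.5 FPKM in Ctrl and 17.8, 18.2 and 19.6 FPKM in ZA. Idi1 measured 5.92, 5.65 and 6.56 FPKM in Ctrl and 8.41, 7.86 and 9.23 FPKM in ZA. In these 4 genes every ZA library lay above every Ctrl library. The likeness is over 6 libraries that fall into the same groups for each gene, so it carries no test, and no other member was among the 5.

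**Figure D5:**
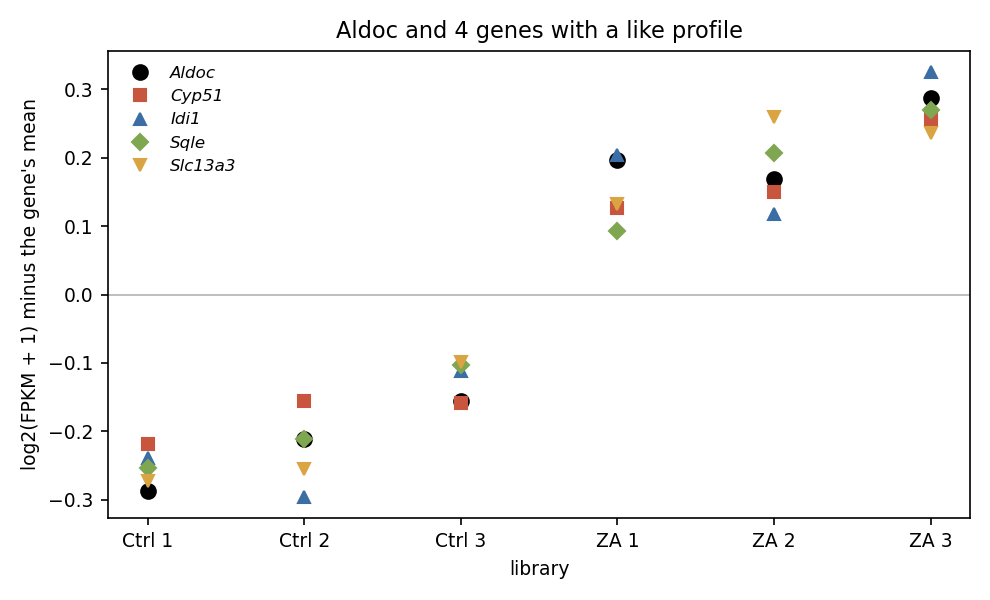
Log2(FPKM + 1) minus the mean of the gene over the 6 libraries, for Aldoc (black) and 4 of the 5 genes with the smallest root mean square difference from it. All of the genes drawn lie below 0 in the 3 Ctrl libraries and above 0 in the 3 ZA libraries.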

How the data were processed

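RNA of BMDMs was sequenced as 150-base paired reads in 3 Ctrl and 3 ZA samples. The deposited file is a single table with the FPKM of each gene in each library, and it holds no counts. The submitters' processing notes name the build mm9, and the aligner and counting program are not given in the sources used here. The sample labels name a VAHTS and also a SMARTER library kit. Groups and replicate numbers came from the sample labels.

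In the table only 11 of 35434 rows held separators. The remaining rows, in which symbol and values ran together, were split at plausible number ends. Ambiguous splits were resolved by requiring whole fragments at one common gene length in all libraries. This restored 35423 rows, 361 of them with the help of known symbols, and the 11 intact rows came out identical. Of 3000 simulated rows, modelled on rows already restored, 3000 were restored exactly. The restored rows hold 99.7% of each library's fragments. All 19369 rows above 0 in any library gave whole fragments within the rounding of the printed digits. The splitting itself looked for whole fragments, so this is no separate check of it. At the median length of 3422.5 bases, 3 fragments correspond to 0.0210 FPKM.

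The groups were compared two-sided by limma 3.58.1 (R 4.3.3; lmFit, then eBayes with a mean trend) on log2(FPKM + 1) for 9800 genes whose mean reached 1 FPKM, with Benjamini-Hochberg adjustment at 0.05. Differences of genes with low FPKM are understated on this scale. On simulated data for this comparison with 200 of 9800 genes changed 2-fold, 200 were called together with 9 unchanged genes, and with 0 changed genes 0 were called. A 2-fold change is larger than that of any member (Aldoc was higher by 38.7%), and the recovery of smaller changes was not tested. Copies were sought as shared 150-base windows of GENCODE M21 transcripts, and promoter windows came from RefSeq (GRCm38.p6). Averaged over genes, chi-square values between libraries of one group were 3.52 to 9.73, above sampling noise, so none was an identical copy of another. Abundant genes can drive such an average, and repeated preparations of one RNA can exceed sampling noise too. Whether the libraries came from separate cultures is therefore not settled by it. Libraries of different groups were not compared in this way. Python 3.11.15 and Matplotlib 3.10.9 were used for restoring and drawing.

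The members and the lists of other genes were chosen with earlier results of these data known. All members are named, together with, per list, the 3 genes whose moderated statistic was largest, and genes among the 5 likest to Aldoc. Some items under these rules are not reported here. Alternatives were a pseudocount of 0.1, no filter, a filter of a mean of 5 FPKM, median centring, quantile normalization, a prior without trend, a replicate block, voom on recovered fragments, leaving out each library, and aldolase shares from unscaled fragments.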

Additional observations from a re-analysis of the deposited data

How the results depend on the processing

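The log2 difference of Aldoc stayed positive in all 14 alternatives, between 0.40 and 0.47, while its adjusted p from limma stayed under 0.05 in 8 of them. Aldoc was selected on this contrast in these same libraries, so these counts describe the fit and are no support for its difference. It was above 0.05 without a filter on low values and with a variance prior without a trend (log2 difference 0.44 in both). Leaving out 1 library gave 0.40 to 0.47, and the call was lost without Ctrl replicate 1 (0.40), Ctrl replicate 2 (0.44), ZA replicate 2 (0.46) or ZA replicate 3 (0.40). Of the 10 members, 1 was called in the fit as reported, 0 without a filter and with the prior without a trend, 2 with voom (Aldoc and Gpi1), and 0 to 1 when 1 library was left out. Of the other glycolysis genes 0 were called, and 1, Slc2a6, with voom. Of all genes 36 were called, 1 without a filter, 20 with quantile normalization, 1 with the prior without a trend, 132 with voom and 0 to 25 when 1 library was left out. Over the 9 other members, 3 of 125 values changed sign: Slc2a1 without Ctrl replicate 3 (0.01) and without ZA replicate 2 (0.0375), within a range of -0.0388 to 0.0375 when 1 library was left out, and Pkm without ZA replicate 1 (0.00321), within a range of -0.0293 to 0.00321. The causes were not tested. The difference of the aldolase share of Aldoc in percentage points was 4.78, and from fragments without length scaling it moved by less than the spread between replicates. Aldoa is below the filter of a mean of 5 FPKM and has no value there.

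Adding the replicate number to the fit as a block gave 78 calls over all genes and 1 among the other glycolysis genes (Slc2a6), and the call of no member changed. The numbers were not shown to pair the libraries: the deviations of libraries with the same number from their group means correlated at 0.284, 0.0393 and 0.280 across genes. The depth and n = 3 per group limit what can be seen for Aldoa, at 237 to 284 fragments, and the floor of 3 fragments covers counting error only, while the 95% intervals come from the spread between libraries.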
